A study of Rattus norvegicus with 12 samples.

Results

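Estradiol was compared with vehicle in ovariectomized rats that ate a casein diet, on 6 of the 12 arrays of the series, and 14217 genes were measured on each array. The 6 arrays were those titled as casein pools 1, 2 and 3 and as estradiol pools 1, 2 and 3. The animals were female Sprague-Dawley rats fed casein, a milk protein, from postnatal day 30 to day 64. All of them had their ovaries, the chief source of estrogen, taken out on day 50. From then on they received vehicle (casein group) or 17β-estradiol from an osmotic mini-pump (casein plus E2 group) for 14 days, and the dose is not given in the labels. The other 6 arrays held soy-fed rats with and without E2, and they enter here through the shared estimate of the spread and in the comparison of diets at the end. Each array carried RNA of whole abdominal mammary glands pooled within a group, the number of animals per pool is not given, and the labels do not say whether the pools of a group came from separate animals. The p-values therefore cover the variation among these pools, which may be technical.

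The mammary gland is a tree of epithelial ducts, with a luminal layer that can make milk and a basal layer that can contract, set in fat, vessels, nerves, fibroblasts and immune cells. Estradiol binds estrogen receptor alpha in some luminal cells. These cells then make the progesterone receptor and send growth signals such as amphiregulin to their neighbours. Milk protein genes are classically driven by prolactin through the transcription factor Stat5, together with glucocorticoids and contact with the matrix. Mast cells, adipocytes and endothelial cells of the gland are also known to respond to estrogen in several settings.

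Promoters of 4 genes on which the comparison turns are printed first, because they show the genomic start of milk genes (Csn2, Wap, Lpo) and of the classical estrogen target Pgr. Each is the 250 bases before the gene's start in the RefSeq annotation of the rat build GRCr8, read on the gene's own strand. Csn2 lies at chr14:20601574-20601823 (plus strand), Wap at chr14:85719160-85719409 (minus strand), Lpo at chr10:73123457-73123706 (minus strand) and Pgr at chr8:14354148-14354397 (plus strand). Capitals mark a match to the Stat5 element TTCNNNGAA, found once in the Csn2 promoter as TTCTTGGAA, 88 bases before the start. The same element had no match in the Wap and Lpo windows, and the single arm of an estrogen response element, AGGTCA, had none in the Pgr window.
Csn2: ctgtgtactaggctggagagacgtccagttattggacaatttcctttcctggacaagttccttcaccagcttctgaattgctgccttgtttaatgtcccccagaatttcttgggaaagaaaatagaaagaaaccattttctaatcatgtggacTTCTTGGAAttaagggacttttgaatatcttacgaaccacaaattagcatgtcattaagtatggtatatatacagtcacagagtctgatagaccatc
Wap: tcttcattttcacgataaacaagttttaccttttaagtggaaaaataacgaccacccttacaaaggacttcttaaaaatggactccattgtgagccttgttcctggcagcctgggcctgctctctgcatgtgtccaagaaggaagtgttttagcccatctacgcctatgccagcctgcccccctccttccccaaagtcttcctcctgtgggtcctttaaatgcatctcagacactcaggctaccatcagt
Lpo: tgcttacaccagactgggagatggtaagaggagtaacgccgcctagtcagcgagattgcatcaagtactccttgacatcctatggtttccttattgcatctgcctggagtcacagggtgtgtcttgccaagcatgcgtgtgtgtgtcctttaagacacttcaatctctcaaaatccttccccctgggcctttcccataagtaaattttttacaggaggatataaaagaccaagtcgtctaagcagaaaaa
Pgr: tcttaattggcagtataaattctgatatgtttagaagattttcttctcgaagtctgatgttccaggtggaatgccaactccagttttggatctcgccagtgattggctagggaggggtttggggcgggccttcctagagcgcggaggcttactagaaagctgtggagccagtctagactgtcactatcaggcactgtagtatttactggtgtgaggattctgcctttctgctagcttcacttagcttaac

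These short windows can be set beside all 27457 promoters of the same length, with both strands searched. That background includes genes not measured here, while raised and lowered genes could come only from 11733 measured genes with a promoter. The Stat5 element was in 7.52% of all promoters, in 12 of 175 promoters of genes that rose with E2 (6.86%) and in 2 of 100 of genes that fell (2.0%). Among 17 milk and secretory genes with a promoter it was in Csn1s1, Csn2 and Glycam1, none of which passed the test for E2. It was in 0 of the 7 called milk and secretory genes with a promoter. The single arm AGGTCA was in 13.7% of all promoters, in 21 of 175 of raised genes and in 6 of 100 of lowered genes. The full estrogen response element GGTCANNNTGACC, which shares the bases GGTCA with the single arm, was in 6 promoters in all (0.0219%) and in none of the raised or lowered genes. A sterol response element, TCACNCCAC, was in 0.976% of all promoters and in none of 16 cholesterol synthesis genes. Matches of letters describe these windows, and binding was not measured.

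The deposited values were on a log2 scale with the median of each probe set over the 12 arrays set to 0, so 0 is the middle array and no expression level is known. That the glands held mammary epithelium, fat or other tissue can therefore be read as differences between arrays and not as presence or absence. The arrays of casein plus E2 pools 2 and 3 hardly differed. The SD of their difference was 0.163 over 31099 probe sets, against 0.302 or more in the 65 other pairs of arrays, and their mean was counted as 1 sample. The comparison thus had 3 casein samples and 2 casein plus E2 samples. Casein pool 3 stood apart with liver transcripts (mean of 27 liver genes 5.02, against -0.29 to 0.19 on the other 5 arrays). Skeletal muscle transcripts (28 genes) averaged 2.80 in casein pool 2 and 1.25 in casein pool 1, against 0.25 in casein pool 3 and -0.66 to 0.35 with E2. The mean of 18 hybridisation spike-in probe sets was 0.261, 1.113 and 0.065 in casein pools 1, 2 and 3. In casein plus E2 pools 1, 2 and 3 it was 0.185, -0.091 and -0.129. Casein pool 2 was thus far above the other arrays, and the bearing of this on its gene values was not tested.

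**Figure D1:**
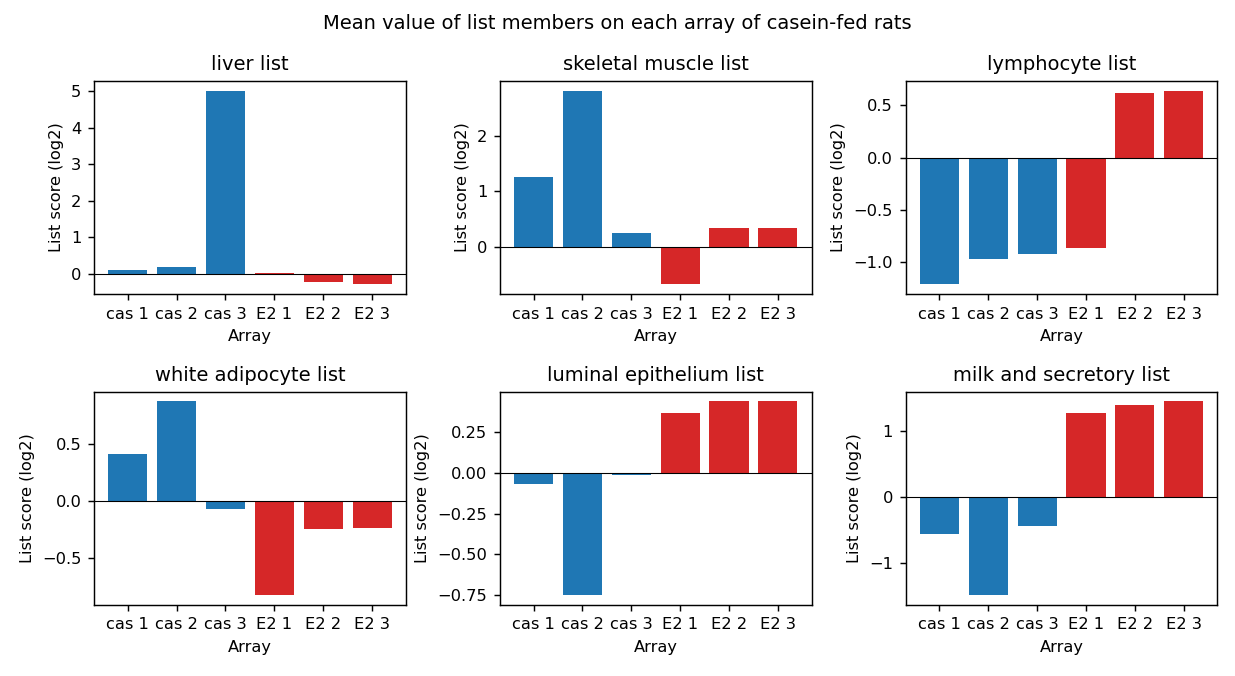
Mean log2 value of the members of 6 gene lists on each of the 6 arrays (cas, casein pools in blue; E2, casein plus E2 pools in red), each panel on its own scale. Liver transcripts reached 5.02 in casein pool 3 and muscle transcripts 2.80 in casein pool 2, while the milk and secretory list was below 0 on every casein array and above 0 on every casein plus E2 array.

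E2 raised 211 genes and lowered 135 in casein-fed rats, 346 of 14217 in all (limma, Benjamini-Hochberg adjusted p under 0.05), which is 2.43% of genes (1.48% higher and 0.95% lower). Milk genes and the estrogen targets Pgr and Areg were among the 15 genes that rose most, and genes known from fat cells, mast cells, stroma and vessels were among the lowered. Calls in either direction made up 31.6% of the mast cell list and 26.1% of the endothelial list. They made up 9.52% of the fibroblast list, 4.0% of the white adipocyte list and 3.23% of the collagen list, the last 2 close to the share of all genes. The median size of the change was 0.99 log2 units for raised and 0.93 for lowered genes. Against the casein mean, casein plus E2 pool 1 alone gave medians of 1.0 and -0.91, and the averaged pair gave 0.94 and -0.91. Of the raised genes 105 changed by at least 1 log2 unit, 22 by at least 2 and 11 by at least 3, and of the lowered genes 56, 5 and 1. In all 346 genes the 3 casein samples did not overlap the 2 casein plus E2 samples, as in 39.8% of all genes. An unadjusted p under 0.05 was reached by 2791 genes, 19.6% (10.6% higher and 9.03% lower). Counts at this level in the lists below are to be read beside these shares.

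The number of calls moved far more than the sizes of the changes when arrays were left out. Leaving out casein pool 1, 2 or 3 gave 17, 12 or 157 calls. Without casein plus E2 pool 1 the E2 group was 1 sample, the averaged pair. Calls lost in that fit, here and below, therefore do not show a dependence on pool 1. Leaving out casein plus E2 pool 2 or 3 kept the number of samples and gave 376 or 323 calls. The soy arrays enter only through the shared spread, and the count was 68 with soy pool 2 omitted, 230 with soy pool 3 omitted, and 140 and 590 with soy plus E2 pools 2 and 3 omitted in turn. With casein pools 2 and 3 omitted together 0 genes passed in limma, and 1610 had an unadjusted p under 0.05. All 346 genes kept their sign without each array in turn and without casein pools 2 and 3 together. Because their groups did not overlap, and soy arrays do not enter the difference, the sign could hardly turn. The change of these genes without 1 array was 0.67 to 1.31 times the full one. Without casein pools 2 and 3 it was 0.96 times the full one in the median, and 3 genes moved by more than 1.5 times. Of the gene lists described below, those with called members without casein pool 1 were the milk list (3), the estrogen response list (1) and the steroid receptor list (1, Pgr in both). It was the milk list alone when casein pool 2 (2 members) or casein plus E2 pool 1 (1 member) was omitted. Lpo, Ppif and Zcchc10 were the 3 genes called without each of the 12 arrays in turn.

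**Figure D2:**
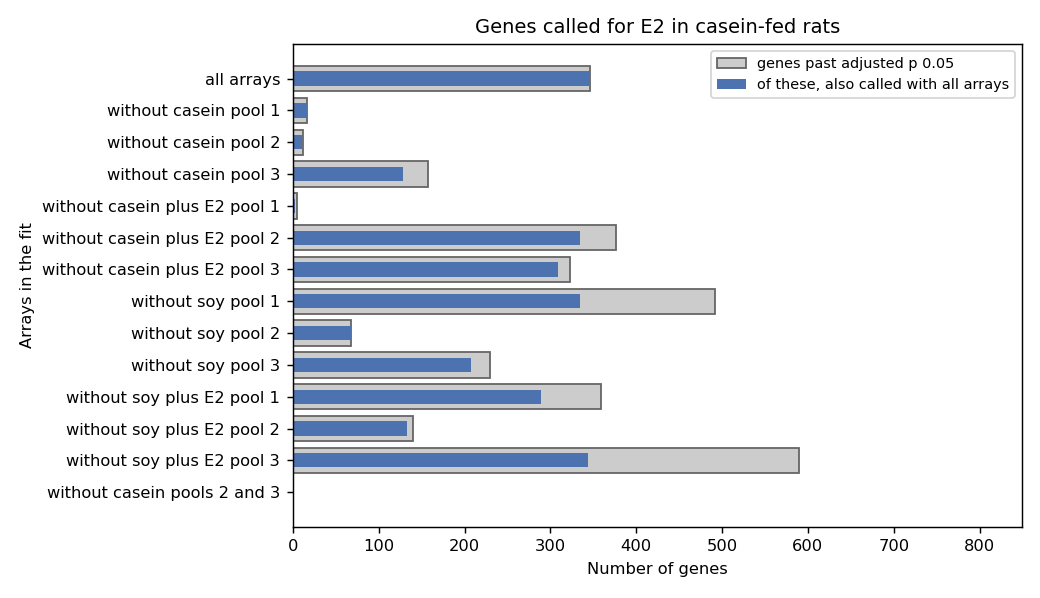
Number of genes past the threshold for E2 in casein-fed rats (horizontal axis) with all arrays and without each named array (vertical axis); grey bars count all called genes and blue bars those also among the 346 called with all arrays. The count was 346 with all arrays and 590 when soy plus E2 pool 3 was omitted. When casein plus E2 pool 1 was omitted the E2 group was 1 sample.

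Of 19 milk and secretory genes 9 rose, 0 fell and 10 did not pass, with a median change of 1.68, against 0.02 over all genes. RNA was of the whole gland, so fewer cells of a type and less RNA per cell cannot be told apart here or in any list below. Lpo, lactoperoxidase, an antibacterial enzyme of milk, was at -0.79, -0.87 and -0.60 in casein pools 1, 2 and 3 and at 3.32, 3.64 and 4.05 in casein plus E2 pools 1, 2 and 3. The groups were far apart and each was tight, and Lpo rose by 4.34 ± 0.34 (SE, limma adjusted p = 0.00208). Wap, the whey acidic protein of rodent milk, was at -1.31, -4.42 and -1.22 in casein and at 2.54, 2.89 and 3.06 with E2. Casein pool 2 lay far below the other casein pools, and the rise was 5.07 ± 0.93 with all arrays (adjusted p = 0.0352) and 4.02 without that pool (adjusted p = 0.0593).

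Csn2, the beta-casein gene, showed the same low pool more strongly and did not pass. It was at -0.84, -5.98 and -0.64 in casein and at 0.90, 0.78 and 1.04 with E2, and its difference was 3.39 ± 1.32 (adjusted p = 0.191) and 1.74 without casein pools 2 and 3. Kappa-casein gene Csn3 did pass, at -0.14, -0.94 and -0.32 in casein and 1.01, 0.94 and 1.03 with E2 (1.47 ± 0.32, adjusted p = 0.0464). Wfdc3, a relative of Wap, rose by 4.40 ± 0.62, from -0.54, -2.31 and -0.57 to 3.15, 3.39 and 3.37. Fabp3, a fatty acid carrier, rose by 3.96 ± 0.49, and Chrdl2, described with the growth factors, by 3.46 ± 0.46. Folr1, a folate receptor, rose by 1.68 ± 0.16, Mfge8, a milk fat globule protein, by 1.47, and Xdh, which takes part in milk fat globule secretion, by 1.18. Glycam1 (3.79), Olah (2.50), which ends fatty acid chains early in milk fat synthesis, Muc1 (1.72), the alpha-lactalbumin gene Lalba (1.15), Csn1s1 (1.03) and Cel (1.0) were higher and did not pass. Plin2 (0.09), Spp1 (-0.14) and Cidea (-0.14) lay near 0.

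The milk list scored -0.55, -1.48 and -0.44 in casein pools 1, 2 and 3 and 1.28, 1.40 and 1.45 with E2. Casein pool 2 was also the lowest of the casein pools in the luminal list (-0.75) and the basal list (-0.56), and the part of epithelial content in its low milk genes was not tested. The median change of the milk list was 1.48 without casein pool 2, 1.68 without casein pool 3 and 1.55 without both. The called members numbered 7 without casein pool 3, 5 with soy pool 2 omitted and 5 with soy plus E2 pool 2 omitted.

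**Figure D3:**
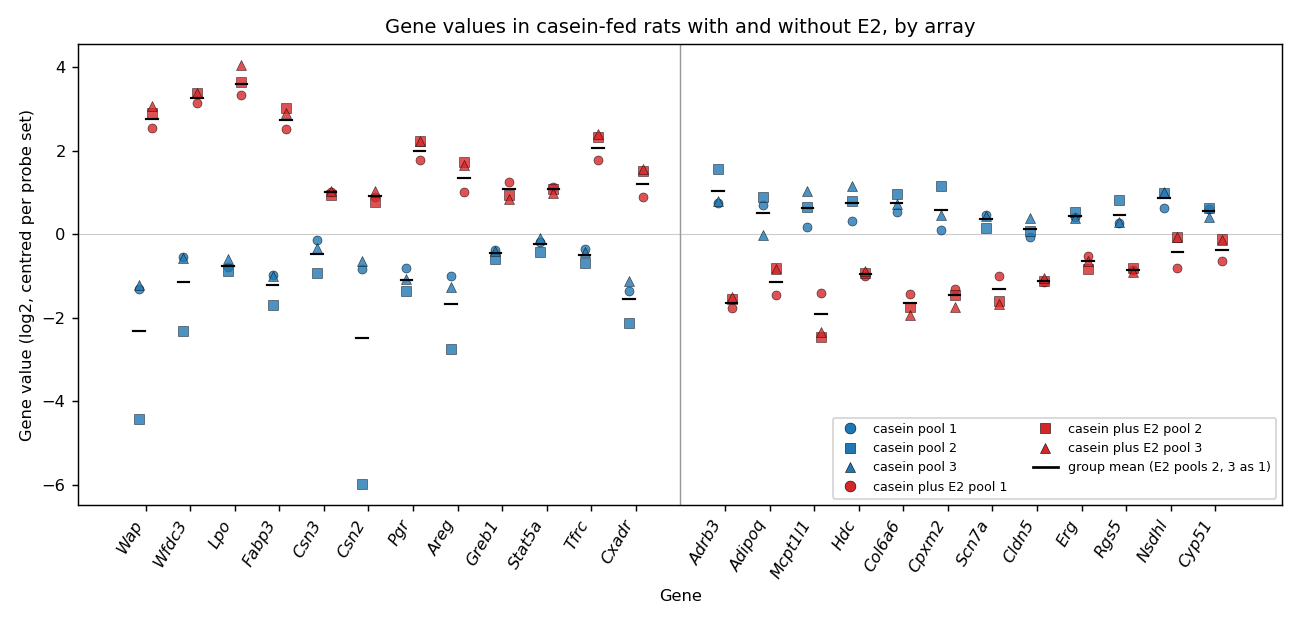
Gene values (log2, centred per probe set) of 24 genes on the 6 arrays, with casein pools in blue, casein plus E2 pools in red and black lines for group means (casein plus E2 pools 2 and 3 as 1 sample); 12 genes with higher values under E2 are on the left and 12 with lower values on the right. The groups do not overlap in any of the 24, Csn2 and Adipoq did not pass the test, and casein pool 2 is far below the other casein pools for Wap (-4.42) and Csn2 (-5.98).

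Of 28 estrogen response genes 4 rose, 0 fell and 24 did not pass, and the median change was 0.11. Pgr, which encodes the progesterone receptor, was at -0.82, -1.37 and -1.07 in casein and at 1.78, 2.22 and 2.22 with E2, a rise of 3.09 ± 0.39 (adjusted p = 0.012). Areg, the amphiregulin gene, whose product signals from estrogen-responsive cells to the epidermal growth factor receptor, was at -1.01, -2.74 and -1.26 and then at 1.01, 1.72 and 1.65, a rise of 3.02 ± 0.59. Greb1, an estrogen receptor cofactor, rose by 1.54 ± 0.21 as the mean of probe sets that disagreed (0.14 and 2.93). Ramp3, a partner of calcitonin-family receptors, rose by 1.42 ± 0.18. All of these had separate groups, and Areg was lowest in casein pool 2. Kcnk5 (0.99), Susd3 (0.95), Sgk3 (0.83), Celsr2 (0.55), Igfbp5 (0.47) and Xbp1 (0.29) had unadjusted p under 0.05 and did not pass. Targets named in other estrogen-responsive tissues lay near 0, with Tff1 at 0.05, Stc2 at 0.12 and S100g at 0.12. Called members numbered 0 without casein pool 2 and 0 without casein plus E2 pool 1.

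The receptors of steroid hormones other than Pgr did not pass. Esr1, estrogen receptor alpha, was at -0.13, 0.45 and 0.22 in casein and at 0.01, -0.02 and -0.32 with E2, so the groups overlapped, and it differed by -0.26 ± 0.16. Esr2, estrogen receptor beta, differed by -0.03 ± 0.11. Among 15 receptors and cofactors Esrrb (1.54), Nr3c2 (-0.68) and Pgrmc2 (-0.73) had unadjusted p under 0.05. Of 16 steroid metabolism genes 0 passed in limma and 3 had an unadjusted p under 0.05 (18.8%, near the 19.6% of all genes). The 3 were the estrogen sulfotransferase gene Sult1e1 (1.18), the steroid sulfatase gene Sts (-0.83 ± 0.20, limma adjusted p = 0.0647) and Star (-1.17 ± 0.31), which moves cholesterol into mitochondria. With soy plus E2 pool 3 omitted 4 steroid metabolism genes and 2 receptor genes were called, and with soy pool 1 omitted 1 steroid metabolism gene was.

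Growth factor genes changed at few points. Of 14 ErbB ligands and receptors 2 rose, Areg and the receptor gene Erbb3 (0.70 ± 0.14), while Egfr (0.57), Tgfa (0.47) and Btc (0.36) did not pass and Nrg4 was at -0.82. Of 31 Fgf, Bmp and Notch genes 2 rose and 1 fell. Chrdl2, a secreted Bmp-binding protein, rose by 3.46 ± 0.46, from -1.17, -0.93 and -0.75 to 2.51, 2.51 and 2.50. Tgfb3, a growth inhibitor of the transforming growth factor family, rose by 1.71 ± 0.36. Hey2, a transcription factor downstream of Notch, fell by 1.56 ± 0.27. Nog (-1.34), Bmp4 (-1.0), Jag1 (-0.90), Inhba (-0.80) and Notch1 (-0.65) were lower and did not pass. The ErbB list had 0 called members without casein pool 3, soy pool 2 or soy pool 3, and 1 with soy plus E2 pool 2 omitted. The Fgf, Bmp and Notch list had 1 with soy pool 2 omitted and 6 with soy plus E2 pool 3 omitted.

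Of 22 Wnt and RANKL genes 0 passed in limma, with 5 at an unadjusted p under 0.05 (22.7%, near the 19.6% of all genes). Wnt4 and Tnfsf11 (RANKL), signals through which progesterone acts on the gland, differed by -0.19 ± 0.41 and 0.10 ± 0.35. The RANKL receptor gene Tnfrsf11a was at 1.25, the Wnt inhibitor gene Wif1 at 0.79 ± 0.19 (adjusted p = 0.0598), Lgr4 at 0.71, Axin2 at -1.01 and Sfrp4 at -1.09. Of these 22 genes 2 were called with soy plus E2 pool 3 omitted, and 1 with soy pool 1 or soy plus E2 pool 2 omitted. Of 16 growth hormone and insulin-like growth factor genes 0 passed as well, with 9 at an unadjusted p under 0.05. Igf1 was at 0.14, 0.64 and 0.50 in casein and at -1.0, -1.49 and -1.37 with E2 (-1.64 ± 0.42, adjusted p = 0.0746), and Igfbp3 was at -1.65. Irs2, an adaptor of insulin receptors, was higher by 0.85 ± 0.20 (adjusted p = 0.0556). For Igf1 and Irs2 the groups did not overlap, as in 39.8% of all genes, and the change did not pass. Of the 16 genes 2 were called with soy plus E2 pool 3 omitted, and 1 with casein plus E2 pool 2, soy pool 1, soy pool 3 or soy plus E2 pool 1 omitted.

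Prolactin and Stat5 signalling had 2 raised genes among 14, with a median of 0.48. Stat5a, the factor that drives milk genes, was at -0.19, -0.43 and -0.09 in casein and at 1.13, 1.09 and 0.98 with E2, a rise of 1.32 ± 0.21 (adjusted p = 0.0248). Id2, needed for alveolar growth, rose by 0.91 ± 0.19, with probe sets at 1.42 and 0.41. Elf5, the alveolar transcription factor, was at -0.59, -1.78 and -0.07 and then at 1.19, 1.33 and 1.48 (2.11 ± 0.51, adjusted p = 0.065). It did not pass, with casein pool 2 again the lowest. Jak2 (0.75), Stat3 (0.73) and Stat5b (0.70) did not pass either. The prolactin receptor gene Prlr was at 0.23 ± 0.28, and the Stat5 feedback genes Socs2 (0.41) and Cish (-0.21) had no call. Called members numbered 1 without soy pool 2 or soy plus E2 pool 1 or 2, and 4 without soy pool 1 or soy plus E2 pool 3.

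Cell division genes were higher with few calls. Of 37 measured, 2 rose, Aurka, a mitotic kinase, by 1.01 ± 0.19 and Mcm6, part of the replication helicase, by 0.83 ± 0.18. The change was above 0 in 36 of 37 members with a median of 0.45, and 19 had an unadjusted p under 0.05, all higher, against 10.6% of all genes. Mki67 was at -0.02, -0.60 and -0.61 in casein and at 0.15, 0.20 and 0.26 with E2 (0.60 ± 0.26). Casein pool 1 lay close to the E2 pools, and Mki67 did not pass. The median of the list was 0.29 without casein pools 2 and 3. No member was called without casein pool 3, soy pool 2 or soy plus E2 pool 2, while omitting soy plus E2 pool 1 left 1 call and omitting soy pool 1 gave 4. Of 19 cyclin and inhibitor genes 0 passed in limma, and 4 had an unadjusted p under 0.05 (21.1%, near the 19.6% of all genes). The 4 were Myc (0.73), Ccna2 (0.66), Cdk4 (0.40) and Ccnd2 (-0.83 ± 0.19, limma adjusted p = 0.0537). Ccnd1, cyclin D1, differed by 0.51 ± 0.26, and 1 cyclin or inhibitor gene was called with casein pool 3 or soy plus E2 pool 3 omitted.

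Genes of epithelial identity were mostly higher without passing. Of 24 luminal genes 20 were above 0 with a median of 0.84, and 1 passed. This was Tspan8, a tetraspanin gene, which fell by 1.09 ± 0.16, from 0.20, 0.52 and 0.34 to -0.72, -0.75 and -0.76. Cd24 (1.78), Muc1 (1.72), Ehf (1.49), Gata3 (1.27), Krt19 (1.18), Spint2 (1.08) and Cldn3 (1.0) had unadjusted p under 0.05, as did Krt7 at -1.48. The general epithelial genes Cdh1 (0.19 ± 0.26) and Krt18 (0.44 ± 0.38) lay closer to 0. Of 17 basal and myoepithelial genes 0 passed in limma and 8 had an unadjusted p under 0.05, all higher, among them Sox10 (1.44), Krt14 (0.90 ± 0.32) and Col17a1 (0.72). Luminal calls numbered 2 with casein plus E2 pool 3 omitted and 3 with soy pool 1 or soy plus E2 pool 3 omitted. The medians depended on casein pool 2. The luminal median was 0.50 without it and 0.49 without casein pools 2 and 3, and the basal median went from 0.53 to 0.31 and 0.20.

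Of 13 tight junction genes 2 rose. Cxadr, an adhesion molecule at junctions, was at -1.37, -2.13 and -1.13 in casein and at 0.88, 1.51 and 1.57 with E2 (2.75 ± 0.51, adjusted p = 0.0365), and Ocln, occludin, rose by 1.18 ± 0.25. Cldn8 (2.0) and Cgn (1.47) did not pass. The median was 0.80 with all arrays and 0.60 without casein pools 2 and 3, and 1 member was called with casein pool 3 or soy plus E2 pool 2 omitted and 0 with soy pool 2 omitted.

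Nutrient and mineral transporter genes had 5 raised and 0 lowered of 29, with a median of 0.54. Slc34a2, a phosphate transporter, rose by 3.31 ± 0.60, from -0.39, -1.93 and -0.10 to 2.59, 2.40 and 2.47. Tfrc, the transferrin receptor for iron uptake, rose by 2.56 ± 0.41, from -0.35, -0.69 and -0.43 to 1.78, 2.33 and 2.39. Atp2c2, a calcium and manganese pump of the secretory pathway, rose by 1.78 ± 0.38. Slc28a3, a nucleoside transporter, rose by 1.25 ± 0.22 and the aquaporin gene Aqp3 by 0.82. The zinc transporter genes Slc39a8 (1.53) and Slc30a4 (1.30), the milk efflux pump gene Abcg2 (2.03) and Aqp5 (1.36) were higher and did not pass, while Aqp7, the glycerol channel of fat cells, was at -1.5. Called members numbered 1 with soy pool 2 omitted, 3 with soy pool 3 or soy plus E2 pool 1 or 2 omitted, 8 with soy pool 1 omitted and 9 with soy plus E2 pool 3 omitted. Of 29 endoplasmic reticulum secretion genes 0 rose and 1 fell, the stress factor gene Ddit3, by 0.74 ± 0.13, with a median of 0.04. At an unadjusted p under 0.05, 6 members were higher, up to 0.68 for Sdf2l1, and 2 lower, while the chaperone genes Hspa5 (-0.03), Canx (0.0), Pdia3 (0.04) and Hsp90b1 (0.08) lay near 0. Ddit3 lost its call with soy pool 2 or soy plus E2 pool 2 omitted, and 2 members were called with soy pool 1 omitted.

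**Figure D4:**
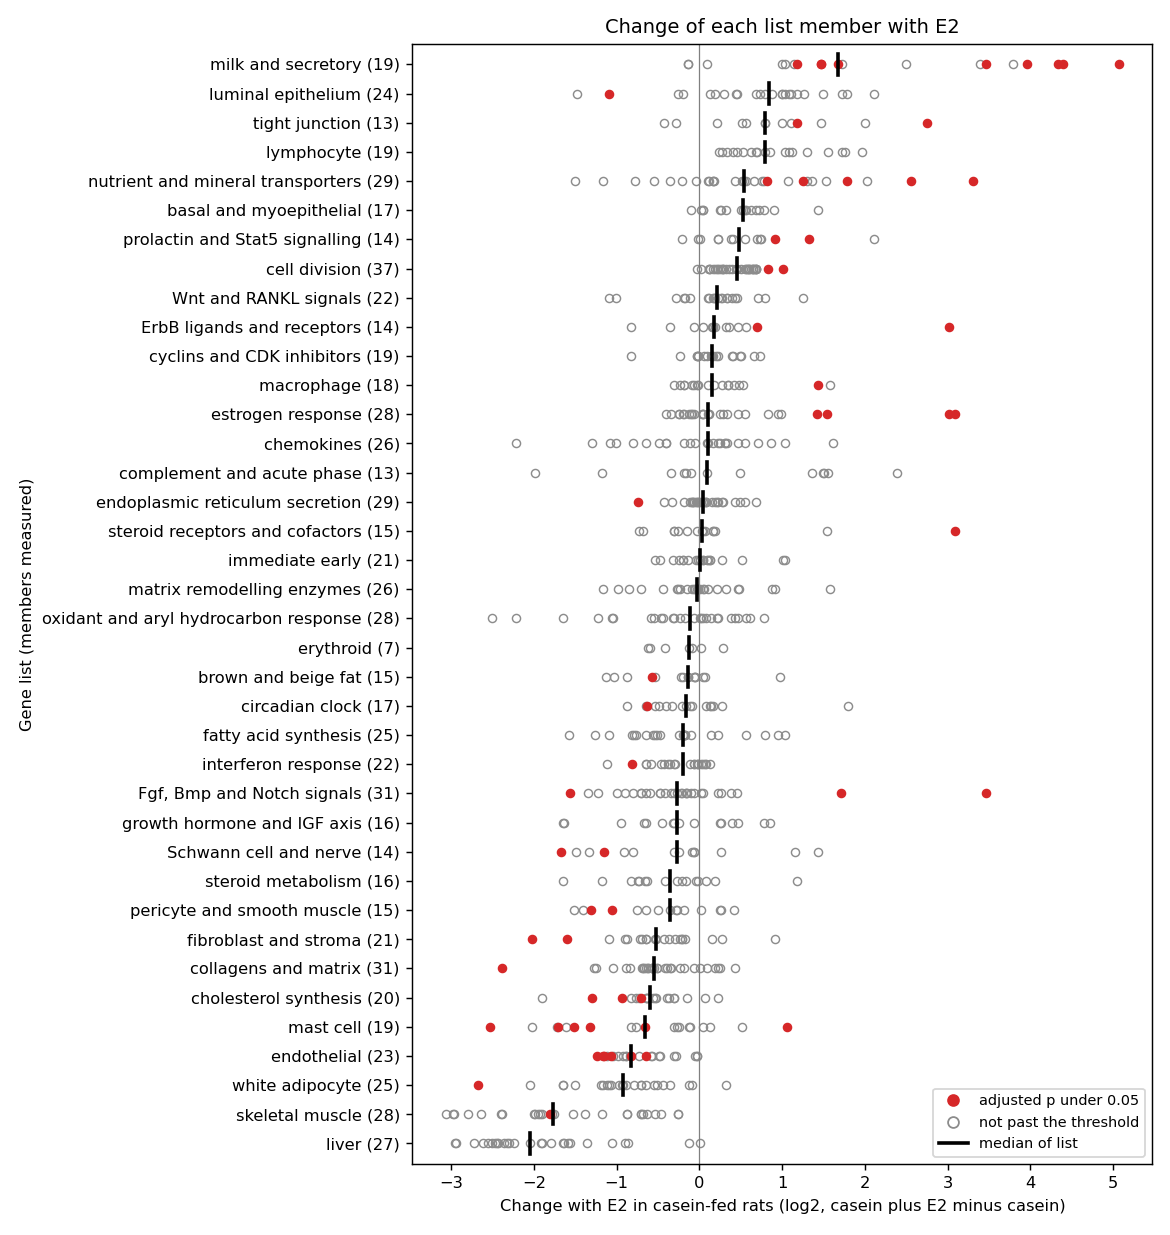
Change with E2 in casein-fed rats (log2, casein plus E2 minus casein, horizontal axis) of every measured member of 38 gene lists (vertical axis, number of members in brackets); filled points passed the adjusted threshold and black bars are list medians. Medians run from -2.05 for liver genes, none of which passed, to 1.68 for milk and secretory genes, of which 9 of 19 passed.

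Genes of white fat were lower with 1 call. Of 25 white adipocyte genes 24 were below 0 with a median of -0.92, and 14 had an unadjusted p under 0.05, all lower, against 9.03% of all genes. Adrb3, the beta-3 adrenergic receptor through which fat cells start lipolysis, was at 0.74, 1.57 and 0.80 in casein and at -1.76, -1.56 and -1.51 with E2, and fell by 2.68 ± 0.55 (adjusted p = 0.0406). Adipoq, adiponectin, was at 0.69, 0.88 and -0.02 and then at -1.45, -0.80 and -0.83 (-1.65 ± 0.44, adjusted p = 0.0798). Lep, leptin, was at 0.75, 1.62 and -0.24 and then at -1.84, 0.0 and -0.10 (-1.65 ± 0.71, adjusted p = 0.237). Of these, Adrb3 and Adipoq had separate groups and Lep overlapped. Pck1 (-2.04), Aqp7 (-1.5), Cidec (-1.16) and Cd36 (-1.11) did not pass. The list scored 0.41, 0.87 and -0.07 in casein pools 1, 2 and 3 and -0.83, -0.25 and -0.24 with E2, so casein pool 3, which held the liver transcripts, was the lowest casein pool. The median was -1.16 without casein pool 3 and -0.69 without casein pool 2. Adrb3 lost its call without any 1 of the casein pools, casein plus E2 pool 1, soy pools 2 and 3 and soy plus E2 pool 2, and its change stayed between -2.83 and -2.41 over the arrays left out. With soy plus E2 pool 3 omitted 3 white adipocyte genes were called.

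Other genes of fat metabolism split. Of 15 brown and beige fat genes 1 fell, Fgf21, a hormone of liver and fat, by 0.57 ± 0.12, and Ucp1 was at -0.22. Fgf21 kept its call in 4 of the 12 fits with 1 array left out, and lost it without any 1 of the casein pools, casein plus E2 pools 1 and 3, soy pool 2 and soy plus E2 pools 1 and 2. With soy pool 1 or soy plus E2 pool 3 omitted 2 members of its list were called. Of 25 fatty acid synthesis genes 0 passed in limma and 9 had an unadjusted p under 0.05. These were Pnpla3 (-1.58), Agpat2 (-1.26), Dgat2 (-1.09), Acss2 (-0.81) and Mlxipl (-0.51) on the lower side and Pdk4 (1.03), Fads2 (0.95), Srebf1 (0.79) and Fads1 (0.56) on the higher side. The synthase gene Fasn (-0.19) and Acaca (-0.17) lay near 0, and 1 member was called with casein pool 3 or soy pool 1 omitted. Of 20 cholesterol synthesis genes 3 fell, 0 rose and 17 did not pass, with a median of -0.60 and 15 of 20 lower at an unadjusted p under 0.05. Nsdhl, a sterol dehydrogenase, was at 0.62, 0.98 and 1.0 in casein and at -0.80, -0.06 and -0.06 with E2 (-1.30 ± 0.26). Cyp51, lanosterol demethylase, fell by 0.93 ± 0.18, and Pmvk, of the mevalonate pathway, fell by 0.70 ± 0.10. Casein plus E2 pool 1 was lower than the other E2 pools in Nsdhl and in the list score (-0.46 against -0.07 and -0.08). The sterol sensor gene Insig1 was at -1.90 without passing, and the regulator Srebf2 at 0.07. Called cholesterol genes numbered 1 without casein pool 3, soy pool 2, soy pool 3 or soy plus E2 pool 2.

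Mast cell genes had 5 lowered and 1 raised of 19. Mcpt1l1, a mast cell protease gene, was at 0.17, 0.66 and 1.04 in casein and at -1.40, -2.47 and -2.35 with E2, and fell by 2.53 ± 0.54 (adjusted p = 0.0464). Hdc, which makes histamine, was at 0.32, 0.79 and 1.15 and then at -1.01, -0.94 and -0.87 (-1.71 ± 0.31). The groups of both genes were apart. The tryptase gene Tpsab1 fell by 1.51 ± 0.30, the receptor gene Milr1 by 1.32 ± 0.23 and the transcription factor gene Gata2, also active in endothelium, by 0.66. Tpsab1 changed by -0.97 without casein pools 2 and 3. Cpa3 (-2.02), Cma1 (-1.72), Fcer1a (-1.61), Tpsb2 (-0.83) and Ms4a2 (-0.76) were lower and did not pass. Mcpt9, another mast cell protease gene, rose by 1.06, and Kit, the growth factor receptor of mast cells, which luminal cells also make, was at 0.13 ± 0.17. Called members numbered 3 with casein pool 3 or soy pool 3 omitted, 0 with soy pool 2 omitted and 2 with soy plus E2 pool 2 omitted.

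Endothelial genes had 6 lowered and 0 raised of 23. All 23 were below 0 with a median of -0.83, and 18 had an unadjusted p under 0.05. Erg, an endothelial transcription factor, was at 0.40, 0.54 and 0.38 in casein and at -0.51, -0.84 and -0.65 with E2, and fell by 1.07 ± 0.16 (adjusted p = 0.0234). Apln, apelin, made by growing vessel tips, was at 0.96, 0.80 and 0.57 and then at -0.38, -0.44 and -0.33 (-1.16 ± 0.15). Both had tight, separate groups. The junction gene Cldn5 fell by 1.24 ± 0.25, the phosphatase gene Ptprb by 1.15 ± 0.19, Egfl7 by 0.83 and the angiopoietin receptor gene Tek by 0.64. Nos3 (-1.04), Vwf (-0.92), Pecam1 (-0.89) and Kdr (-0.57) did not pass, and Flt1 (-0.03), Flt4 (-0.05) and the lymphatic gene Lyve1 (-0.03) lay near 0. The median was -0.65 without casein pools 2 and 3. Called members numbered 2 with soy pool 2 omitted, 3 with soy pool 3 or soy plus E2 pool 2 omitted and 12 with soy plus E2 pool 1 omitted.

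Of 15 pericyte and smooth muscle genes 2 fell, Rgs5, a pericyte signalling regulator, by 1.31 ± 0.26 and Abcc9, a potassium channel subunit of pericytes, by 1.05 ± 0.21 (probe sets -1.53, -0.43 and -1.18). Cspg4 (-1.52) and Mcam (-1.41) did not pass, and the contractile genes Acta2 (0.25) and Myh11 (0.02), shared with myoepithelium, lay near 0. Of 21 fibroblast genes 2 fell. Cpxm2, a carboxypeptidase-like matrix protein, was at 0.10, 1.16 and 0.45 in casein and at -1.31, -1.46 and -1.73 with E2 (-2.02 ± 0.40), and Kazald1 fell by 1.60 ± 0.35. The general fibroblast genes Pdgfra (-0.21) and Dcn (-0.29) were closer to 0. Of 31 collagen and matrix genes 1 fell, Col6a6, a collagen VI chain, from 0.54, 0.96 and 0.73 to -1.44, -1.73 and -1.93 (-2.38 ± 0.33). Col8a1 (-1.27), Col15a1 (-1.25), Sparc (-1.04) and Col1a1 (-0.89) did not pass. The pericyte and fibroblast lists had 0 called members without casein pool 3, soy pool 2 or soy pool 3. With soy plus E2 pool 2 omitted the pericyte list had 0, and with soy plus E2 pool 3 omitted it had 4 and the collagen list 4. The fibroblast list had 1 with casein plus E2 pool 3 or soy plus E2 pool 1 omitted.

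Of 26 matrix remodelling genes 0 passed in limma and 10 had an unadjusted p under 0.05, among them the macrophage elastase gene Mmp12 (1.58), Timp1 (0.88 ± 0.21) and the collagen cross-linking gene Lox (-1.16 ± 0.32). With soy pool 1 omitted 2 of them were called, and 1 with soy plus E2 pool 1 or 3 omitted. Of 14 Schwann cell and nerve genes 2 fell. Scn7a, a sodium channel of glia and sensory neurons, was at 0.47, 0.16 and 0.44 in casein and at -1.0, -1.59 and -1.67 with E2 (-1.67 ± 0.32), and the myelin gene Mbp fell by 1.15 ± 0.20 (probe sets -1.97, -0.11 and -1.38). Sox10 (1.44) and Gfra3 (1.16) were higher, S100b (-1.33) was lower, and none of the 3 passed. Neither Scn7a nor Mbp was called with soy pool 2 omitted, and Scn7a lost its call also with casein pool 3 (limma adjusted p = 0.0676) or soy plus E2 pool 2 omitted. With soy plus E2 pool 3 omitted 4 members were called.

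Immune genes outside mast cells changed little past the test. Of 18 macrophage genes 1 rose, Cd14, a receptor for bacterial lipopolysaccharide, by 1.44 ± 0.27, from -0.60, -0.67 and -0.19 to 0.88, 0.99 and 1.05. Csf1r (0.11), Cd68 (0.27) and Adgre1 (-0.19), which mark macrophages more widely, lay near 0. All 19 lymphocyte genes were above 0 with a median of 0.80, yet 0 passed in limma and 0 had an unadjusted p under 0.05. The lymphocyte list scored -1.21, -0.97 and -0.92 in casein and -0.86, 0.62 and 0.64 with E2, so it was high in casein plus E2 pools 2 and 3 alone. Of 26 chemokine genes 0 passed and 6 had an unadjusted p under 0.05 (23.1%, against 19.6% of all genes). Cxcl13 was at -2.21, Ccl2 at -1.30 and Cxcl9 at -1.08 ± 0.26 (limma adjusted p = 0.0619). Of 22 interferon response genes 1 fell, Ifit2, by 0.81 ± 0.17, and Mx2 (-1.11) did not pass. Cd14 and Ifit2 were not called with soy pool 2 or soy plus E2 pool 2 omitted, and Ifit2 also not with soy pool 3 or casein pool 3 omitted (limma adjusted p = 0.0651 for casein pool 3). With casein pool 3 omitted 2 other interferon genes and 1 chemokine gene were called, and with soy plus E2 pool 1 omitted 2 macrophage genes were.

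The remaining lists had 2 called genes between them. In the circadian list Cry2, a clock repressor, fell by 0.63 ± 0.13, and 16 of 17 did not pass, among them Bhlhe41 (1.80), Bhlhe40 (-0.87) and Bmal1 (-0.11). Cry2 kept its call in 5 of the 12 fits with 1 array left out, and lost it without any 1 of the casein pools, casein plus E2 pool 1, soy pools 2 and 3 and soy plus E2 pool 2. Its probe sets were at -0.43 and -0.84, and 2 members of its list were called with soy pool 1 omitted. In the skeletal muscle list Mlip fell by 1.81 ± 0.28, from 0.58, 1.27 and 0.93 to -0.83, -0.63 and -1.25, and 27 of 28 did not pass, with a median of -1.77, next to the high muscle transcripts of casein pools 1 and 2. No immediate early gene of 21, no oxidant or aryl hydrocarbon response gene of 28, no complement or acute phase gene of 13 and no erythroid gene of 7 passed in limma, with 4, 5, 3 and 2 at an unadjusted p under 0.05. In the same order these were 19.0%, 17.9%, 23.1% and 28.6% of the lists, against 19.6% of all genes. With casein pool 3 omitted 2 complement genes and 1 immediate early gene were called. With soy plus E2 pool 3 omitted 2 oxidant genes and 1 complement gene were called, and 1 complement gene with soy pool 3 and 1 immediate early gene with soy plus E2 pool 1 omitted. None of 27 liver genes passed or had an unadjusted p under 0.05. The liver median was -2.05 with all arrays and -0.20 without casein pool 3, and Alb was at 4.69 in casein pool 3 against -0.08 and 0.59 in pools 1 and 2.

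In all, 289 of the 346 called genes were in no list. By the naming rule (the 15 highest and 15 lowest), the raised genes outside the lists were Obp3, an odorant-binding lipocalin, at 3.32 ± 0.40, Clca1, a secreted protein of mucosal surfaces, at 3.27 ± 0.62, Prr27 at 3.10 ± 0.54, the carbonic anhydrase gene Car2 at 2.60 ± 0.25 and Mroh3 at 2.30 ± 0.47. Car2 was at -0.63, -0.88 and -0.15 in casein and at 2.0, 2.04 and 2.16 with E2, and it lost its call only without casein plus E2 pool 1 (limma adjusted p = 0.071). Among the lowered genes outside the lists were the class I histocompatibility gene RT1-T24-3 at -1.67 ± 0.30, the retinoic acid receptor gene Rarb at -1.52 ± 0.21, the ceramide synthase gene Cers6 at -1.47 ± 0.23, the pancreatic-type carboxypeptidase gene Cpa1 at -1.45 ± 0.28 and the sulfonylurea receptor gene Abcc8 at -1.45 ± 0.30. Rarb was at 0.15, 0.61 and 0.77 in casein and at -1.12, -0.78 and -1.03 with E2. It kept its call in 10 of the 12 fits with 1 array left out, and lost it without casein pool 2 or casein plus E2 pool 1. The largest fall of all called genes, -4.58 ± 1.0, belonged to an uncharacterised gene chosen after its values were seen, LOC102552398 (adjusted p = 0.0487), which was at 1.71, 0.58 and 1.69 in casein and at -3.27, -3.20 and -3.29 with E2.

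Besides Lpo, the genes called without each array in turn had changes of moderate size. Ppif, cyclophilin D of the mitochondrial permeability pore, was at -0.10, -0.15 and -0.12 in casein and at 1.47, 1.09 and 1.17 with E2 (1.43 ± 0.12, adjusted p = 0.00293). Zcchc10, a zinc finger gene, was at -0.57, -0.77 and -0.56 and then at 0.92, 0.76 and 0.95 (1.52 ± 0.12, adjusted p = 0.00208). In both genes the groups were far apart and each was tight. With each of the 12 arrays left out in turn, 64 of the 346 genes kept their call in at least 9 of the 12 fits, 17 in at least 10 and 10 in at least 11. Besides Lpo, Ppif, Zcchc10, Car2 and Folr1, those 10 were Kcne1 (1.97 ± 0.19), a potassium channel subunit, and, named after their values were seen, Phlda1 (1.93 ± 0.22), Hapln3 (1.68 ± 0.19), a hyaluronan link protein, Fibin (1.53 ± 0.15) and Prdx4 (1.39 ± 0.16), a peroxiredoxin of the secretory pathway.

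The effect of E2 was then set against that in soy-fed rats, measured on other arrays, to ask whether any change was particular to the casein diet. For the difference of the E2 effects 0 of 14217 genes passed in limma, 929 (6.53%) had an unadjusted p under 0.05 and the smallest adjusted p was 0.141. No change is therefore described as particular to casein-fed rats. In soy-fed rats 195 of the 211 raised and 124 of the 135 lowered genes had a change of the same sign, and in 332 of the 346 it was smaller. The genes were selected on the casein arrays, so these counts are no evidence of a difference between diets. Wap changed by 5.07 and 6.06 in casein-fed and soy-fed rats and Pgr by 3.09 and 2.84, with differences of 0.98 ± 1.25 and -0.25 ± 0.52.

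**Figure D5:**
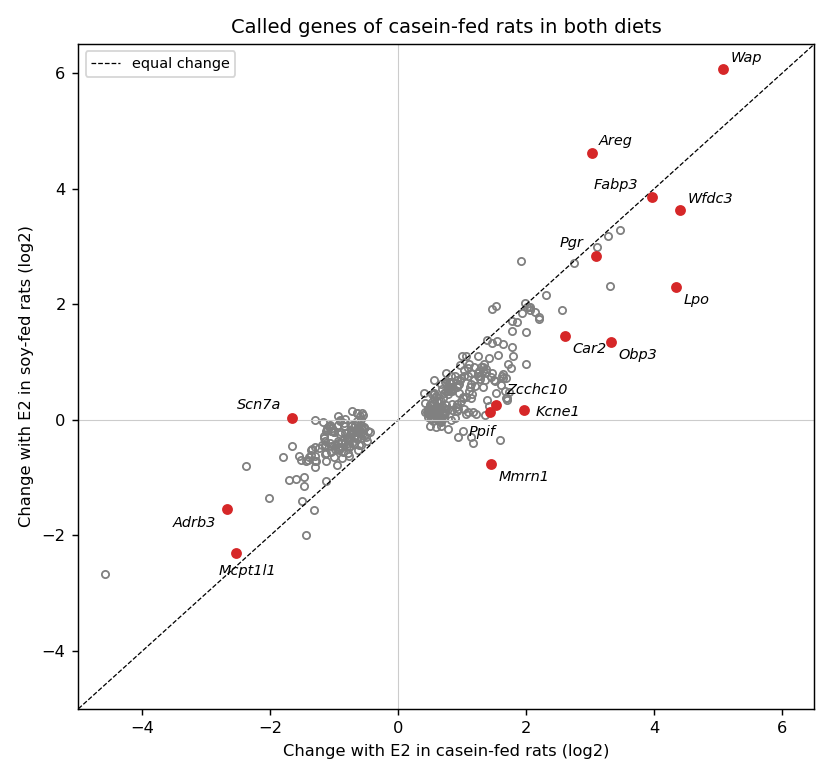
Change with E2 (log2) in casein-fed rats (horizontal axis) and soy-fed rats (vertical axis) for the 346 genes called in casein-fed rats, with the dashed line marking equal change and 15 genes named. Wap and Pgr lie near the line, while Ppif, Zcchc10 and Kcne1 lie near 0 on the vertical axis (0.13, 0.26 and 0.16).

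The called genes with the smallest unadjusted p for the difference between diets were, on the raised side, Ppif, Zcchc10, Kcne1, Folr1, Mmrn1, Fancl and Adamts19, and on the lowered side Pln, phospholamban. Ppif was at 0.07, -0.14 and -0.12 in soy pools 1, 2 and 3 and at 0.05, 0.20 and -0.05 in soy plus E2, a change of 0.13, and the difference from casein was -1.30 ± 0.17 (adjusted p = 0.141). Zcchc10 changed by 0.26 in soy-fed rats, with a difference of -1.26 ± 0.16 (adjusted p = 0.141), and Kcne1 by 0.16, with a difference of -1.80 ± 0.26 (adjusted p = 0.151). These genes were picked as called in casein-fed rats and then by the smallest p for this difference. Their small changes in soy-fed rats follow largely from that choice, and the differences did not pass. Mmrn1, a multimerin of vessels and platelets, changed by 1.45 in casein and -0.77 in soy (difference -2.23 ± 0.38, adjusted p = 0.364). Lpo changed by 2.29 in soy-fed rats, with soy plus E2 pools at 1.69, 1.97 and 0.60, and its difference was -2.05 ± 0.46 (adjusted p = 0.528). Ramp3 (0.23 in soy-fed rats), Erg (-0.09), Scn7a (0.03) and Tspan8 (-0.11) had small mean changes there, with limma adjusted p of 0.477, 0.528, 0.543 and 0.528 for the differences. Their soy plus E2 pools disagreed, and pool 1 was the lowest in each gene. Pools 1, 2 and 3 were at -0.19, 0.37 and 0.30 for Ramp3 and at -0.40, 0.02 and 0.16 for Erg. They were at -0.82, 0.14 and 0.29 for Scn7a and at -0.42, 0.13 and -0.02 for Tspan8. Soy plus E2 pool 3 was the lowest of its group in Wap (1.22 against 3.27 and 3.09) and Pgr (0.82 against 2.21 and 2.24), and its part in the smaller changes in soy-fed rats was not tested. In the endothelial list the median change was -0.83 in casein-fed and -0.15 in soy-fed rats, and in the mast cell list -0.66 and -0.69. The soy plus E2 pools disagreed within both lists. In pools 1, 2 and 3 the endothelial list scored -0.44, -0.01 and 0.11, and the mast cell list -0.60, -0.52 and -0.10. For the endothelial list, soy plus E2 pool 1 was thus close to the casein plus E2 pools (-0.45, -0.48 and -0.46).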

How the data were processed

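Gene expression was measured on Affymetrix rat arrays with biotin-labelled RNA made from 8 µg of total mammary RNA, per the labels' protocols. The deposited table held log2 values of 31099 probe sets on 12 arrays, centred on each probe set's median (largest median 5e-07) with array medians between -0.0246 and 0.0112. The log base was read from the widest range, 9.85. GCOS is named in the submitters' processing notes, while for summarisation, normalization and log base the tool settings were not given in the sources used here. Every fold therefore rests on that reading, and its direction on the column labels. One label field of all samples names hepatic expression while the source names mammary gland, and mammary gland was used here.

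The platform annotation gave 1 gene for 20826 probe sets, several for 436 and none for 9780, besides 57 controls. Of the first, 20758 matched the GRCr8 gene table by identifier, with 0 symbols changed. A gene's value was the mean of its probe sets, with no filter because the values carry no level. Casein plus E2 pools 2 and 3 were averaged, and limma estimated 4 group means from the 11 samples, leaving 7 degrees of freedom for the spread (limma 3.58.1, R 4.3.3, eBayes without a trend, two-sided, Benjamini-Hochberg over all genes). Calls had an adjusted p under 0.05, and errors are standard errors of the fit. The number of arrays limits the precision.

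The members and lists were chosen with earlier results of these data known. The 38 lists held 850 symbols, of which 769 were measured. Named were the 15 highest and 15 lowest called genes without overlap (no LOC, RGD, AABR or Olr symbols), 5 markers, up to 4 called members per list (or the 2 of smallest p), the genes called without each array, the 8 called genes of smallest interaction p and fixed genes. Other genes were named after their values were seen. Of 18 pairs of samples sharing a pool number 5 had deviations correlated above 0.1 (range -0.42 to 0.46), so pool numbers were not used as pairs. The code was tested on simulated data. Alternatives were quantile normalization, median centring, single probe sets, only the casein groups, separate arrays, a replicate block, array weights, a spike-in term, a 1.5-fold minimum, and fits without arrays or without liver and muscle genes.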

Additional observations from a re-analysis of the deposited data

How the results depend on the processing

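The number of calls depended on the setting. Each of the 346 called genes kept its sign without each array in turn and without casein pools 2 and 3 together. The groups of these genes did not overlap, so the sign could hardly turn and its constancy is no test of stability. Quantile normalization gave 628 calls (359 higher, 269 lower), the 12 arrays taken as separate samples 1369 (746 and 623) and array weights 1408 (789 and 619). Fitting only the casein and casein plus E2 groups gave 200 calls, 107 of them higher, and 141 of the 200 were among the 346. With a term for the spike-in mean being above or below 0, 246 genes were called (173 higher, 73 lower), and 176 of them were among the 346. All casein pools and casein plus E2 pool 1 were above 0, and casein plus E2 pools 2 and 3 were below. The term thus partly overlaps the comparison, and it does not take up the size of the value in casein pool 2. Wap was not called with that term (limma adjusted p = 0.0523). With a minimum of 1.5-fold 3 were called (3 higher, 0 lower). Without casein pools 2 and 3 there were 0 calls in limma (0 higher, 0 lower, 1610 at an unadjusted p under 0.05). Leaving out 1 array other than casein plus E2 pool 1 gave 12 to 590 calls, 11 to 320 higher and 1 to 270 lower. The difference between diets had 4 calls with separate arrays, 5 with array weights, 1 with the spike-in term and 1 without casein pools 2 and 3. With the replicate block on the pool number 13 genes were called (13 higher, 0 lower). The labels do not say whether pools of the same number share a batch, so the meaning of this drop cannot be judged.

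Changes of genes that did not pass turned sign as follows. Esr1 was at 0.05 without casein pools 2 and 3. Esr2 was at 0.01, Wnt4 at 0.08 and Tnfsf11 at -0.24 with the spike-in term, and Tnfsf11 at -0.05 with the probe set of largest SD. Cdh1 was at -0.01 with array weights and -0.12 without casein pools 2 and 3. With 1 array left out, Wnt4 ranged from -0.43 to 0.08, Prlr from -0.02 to 0.44, Cdh1 from -0.06 to 0.35 and Kit from -0.11 to 0.18. The cause was not tested. With 3 samples against 2, and no detection values, small changes and levels near background cannot be judged.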

Other observations

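Further called genes outside the lists were looked up after their values were seen, so their grouping is a description and no test. Several genes known from vessels were lower with E2 in casein-fed rats, while Mmrn1, a called gene of vessels and platelets, rose by 1.45. The endothelial transcription factor genes Sox7, Bcl6b and Meox2 fell by 1.35, 1.18 and 1.13 on the log2 scale, the vessel growth factor gene Angpt2 by 0.95, the receptor genes Acvrl1, Nrp1 and Plxnd1 by 0.89, 0.88 and 1.01, and Cd93 by 0.74. The subunit genes of the nitric oxide receptor, Gucy1b1 and Gucy1a1, fell by 1.37 and 1.01. Among raised genes, the retinoic acid carrier gene Crabp2 was higher by 2.20 while the receptor gene Rarb fell by 1.52. The glycolytic gene Aldoc rose by 2.04, the innate immune genes Il18 and Tlr2 by 1.63 and 1.49, the sugar exporter gene Slc50a1 by 1.37, and Fkbp4, a co-chaperone of steroid receptors, by 0.61.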
